A study of Mus musculus with 6 samples.

Results

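The transcripts described here encode 9 factors through which cells of the osteoblast lineage act on osteoclasts, the cells that resorb bone: Tnfsf11, Tnfrsf11b, Csf1, Il6, Il11, Lif, Il1rl1, Sema3a and Ephb4. Every probe set that the platform's probe table assigns to 1 of these symbols was taken, dim ones included, which gave 16 of the 45037 probe sets other than controls. They represent 8 of the 9 genes, and Il1rl1, with no probe set under its symbol in that table, was not analysed here. Of the 16 probe sets, 14 passed the filter on dim signal and were tested among 27022 in all, and each of the 8 genes had at least 1 among them. The RNA came from 2T3 cells, a clonal mouse pre-osteoblast line of calvarial origin immortalised with a viral T antigen. The rotated cells had spent 3 days in a rotating wall vessel, a culture chamber full of medium whose slow horizontal rotation keeps cells in suspension and mimics microgravity, and the static cells 3 days in static culture, with 3 samples and 3 arrays each. Both groups are the same single line at the same passages with no added agent in the labels. Whether samples were separate cultures is not in the labels, so the spread behind each p-value may be technical only. The first group is titled R, read here as rotated. For static 2 and static 3 title and source field disagree, the source field naming simulated microgravity, and the title was followed.

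Osteoclasts form from precursors of the macrophage lineage when M-CSF, the product of Csf1, keeps the precursors alive and RANKL, the product of Tnfsf11, binds its receptor RANK on their surface. Osteoprotegerin, the product of Tnfrsf11b, is a soluble decoy that captures RANKL, so the balance of ligand and decoy made by osteoblasts sets much of the rate of resorption. The gp130 cytokines IL-6, IL-11 and LIF act largely back on the osteoblast, where they raise RANKL, while semaphorin 3A and the EphB4 receptor, which meets ephrin-B2 on the osteoclast, restrain osteoclast formation.

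Limits of the arrays bear on all values below. The 3' actin control was 3.21 times as bright as the 5' one in rotated 1 (the actin ratio), 1.57 times in rotated 2 and 1.48 times in rotated 3, against 1.29 to 1.37 times in the static samples. Static 1 was the array with the highest low-end signal, at a 10th percentile of 22.1 where the others had 4.5 to 7.2. Deposited medians ranged from 70.0 to 130.1. Among tested genes of the osteoblast lineage, 10 of 10 stood lower in the rotated samples, against 46.8% of all tested genes, and 0 passed adjustment. At an unadjusted p under 0.05 in limma 7 stood lower and 0 higher, against 3.74% and 4.49% of all tested genes. This list was chosen with earlier results of these data known. Omd stood at -3.27 ± 0.78, Dlx5 at -1.08 ± 0.32, Cdh11 at -0.51 ± 0.15 and Sp7 at -0.84 ± 0.34 (log2 rotated minus static ± SE, adjusted p 0.564, 0.592, 0.592 and 0.603 in limma). With the actin ratio as covariate they were at -2.11, -0.55, -0.48 and -0.79. With median centring of the arrays they were at -3.12, -0.99, -0.24 and -0.83. The summed deposited signal of that list's 11 probed genes was 57045.4 to 73118.5 in rotated samples and 77857.9 to 86541.7 in static samples. Sparc, Col1a2, Cdh11 and Col1a1, which other mesenchymal cells express too, were its brightest genes. Alpl and Ibsp lay close to the filter level of 5.96 log2 units, with means of 6.29 and 6.09 in rotated samples and 6.56 and 6.64 in static samples, Phex lay below it in both groups, and Bglap, Runx2 and Spp1 were not analysed here. The part of these array and marker differences in the results was not tested. Values with the actin covariate or without an array show only how a result moved. Every rotated array had a higher actin ratio than every static array, so a fit with this covariate cannot tell the ratio and rotation apart. Of 12 probed osteoclast markers 6 stayed below the filter, namely Acp5, Calcr, Dcstamp, Ocstamp, Itgb3 and Atp6v0d2. Of the 6 tested, 5 stood higher in the rotated samples, with a median of 0.17, where 46.8% of all tested genes stood lower. Ctsk stood at 0.50 ± 0.38 (adjusted p 0.698 in limma), with overlapping groups. The summed signal of the 12 was 2888.7 to 4196.5 in rotated samples against 2886.0 to 3944.2 in static samples. Of 12 macrophage and blood cell markers 5 stayed below it, namely Ptprc, Itgam, Tyrobp, Mpeg1 and Aif1, with sums of 3466.9 to 5107.2 in rotated samples and 2962.7 to 4925.5 in static samples. Of the 7 tested, 5 stood higher in the rotated samples, with a median of 0.13, where 46.8% of all tested genes stood lower. The 2 lower were Fcgr1 at -0.84 ± 0.51, with a rotated mean below the filter level, and Lyz2 at -0.40 ± 0.44 (adjusted p 0.647 and 0.785 in limma). Cd53, a leukocyte membrane protein gene, had 823.2, 80.9 and 363.8 in rotated samples, against 218.5, 12.5 and 207.4 in static samples, a difference of 1.52 ± 0.87 (adjusted p 0.638 in limma, 0.219 with the replicate number as a block). Cd14 was the brightest, at 2872.6 to 4241.7 in rotated samples and 2471.3 to 4234.5 in static samples. Ctsk, Cd53, Cd14, Fcgr1 and Lyz2 were named after their values were seen. Fewer cells of a type and less RNA per cell cannot be told apart in such bulk RNA.

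The promoters of 3 members are shown, and no link between them and the differences below was tested. Tnfsf11 was taken because its probe sets had the lowest differences of all members. Il6 and Csf1 are cytokine genes with bright probe sets. Of the 8 members with a promoter, they alone matched an NF-kB motif, and they are shown for that match. Each line is the 250 bases before the RefSeq start of the gene in build GRCm38.p6, read 5′ to 3′ on the gene's strand, with matched motifs in capitals. Tnfsf11 lies on the minus strand at chr14:78308044-78308293, Il6 on the plus strand at chr5:30012864-30013113 and Csf1 on the minus strand at chr3:107760470-107760719.
Tnfsf11: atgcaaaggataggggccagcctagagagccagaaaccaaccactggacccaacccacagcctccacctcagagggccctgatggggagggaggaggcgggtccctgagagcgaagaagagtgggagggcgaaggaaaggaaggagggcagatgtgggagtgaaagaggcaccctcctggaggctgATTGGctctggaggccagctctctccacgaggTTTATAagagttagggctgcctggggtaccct
Il6: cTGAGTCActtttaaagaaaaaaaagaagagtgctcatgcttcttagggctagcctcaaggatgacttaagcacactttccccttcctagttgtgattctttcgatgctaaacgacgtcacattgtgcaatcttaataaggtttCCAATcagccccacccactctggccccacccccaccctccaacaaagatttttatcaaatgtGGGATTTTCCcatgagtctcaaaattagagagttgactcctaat
Csf1: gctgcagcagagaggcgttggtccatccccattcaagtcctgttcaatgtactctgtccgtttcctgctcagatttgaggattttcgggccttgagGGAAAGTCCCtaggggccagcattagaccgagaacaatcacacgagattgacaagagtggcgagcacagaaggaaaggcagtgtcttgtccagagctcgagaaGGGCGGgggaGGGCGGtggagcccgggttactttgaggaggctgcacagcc
Motifs were searched on both strands as the TATA box TATAAA, the CCAAT box CCAAT, the AP-1 motif TGANTCA, the CRE TGACGTCA, the NF-kB motif, whose matched letters stand in capitals above, the STAT motif TTCNNNGAA and the GC box GGGCGG, and none of the matches in these 3 windows overlapped another. The Tnfsf11 window held a TATA box match 32 to 27 bases before the start and a CCAAT match 64 to 60 bases before it, both on the opposite strand, and those motifs occur in 12.4% and 33.9% of the 32851 promoters in the table. The Il6 window held the NF-kB match 44 to 35 bases, a CCAAT match 106 to 102 bases and an AP-1 match 249 to 243 bases before the start. In the Csf1 window the NF-kB match lay 154 to 145 bases before the start, on the opposite strand, and 2 GC boxes lay nearer to it. An NF-kB match is found in 0.356% of promoters, an AP-1 match in 6.75% and a GC box in 32.7%. Because Il6 and Csf1 are shown for their NF-kB matches, the share over all promoters is no measure of enrichment among the members. These are matches of letters and do not show that a factor binds there.

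Across the members no probe set passed limma's test, with 0 of 14 at an adjusted p under 0.05 and adjusted p between 0.564 and 0.995. Over all 27022 tested probe sets limma called 0 as well, which is 0% of them. At an unadjusted p under 0.05 there was 1 of 14 member probe sets, a Tnfsf11 one that stood lower and passed the filter only through its static values, against 8.25% of all tested probe sets, with 3.9% of all lower. Rotated and static values did not overlap for 2 of 14, both lower in the rotated samples, and for 15.1% of all tested probe sets, with 7.29% of all lower. The difference was below 0 for 10 of 14 member probe sets, with a median of -0.32, and for 47.4% of all tested probe sets, with a median of 0.03 (log2). Several probe sets of a gene are not independent, and counted by gene, with the brightest probe set of each, 5 of 8 members stood lower against 46.8% of 12554 genes, with medians of -0.13 and 0.03. With the replicate number as a block, limma gave 3 of 14 member probe sets an unadjusted p under 0.05 against 14.6% of all, and 0 of 14 passed adjustment (smallest adjusted p 0.191), as 0.0074% of all did.

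**Figure D1:**
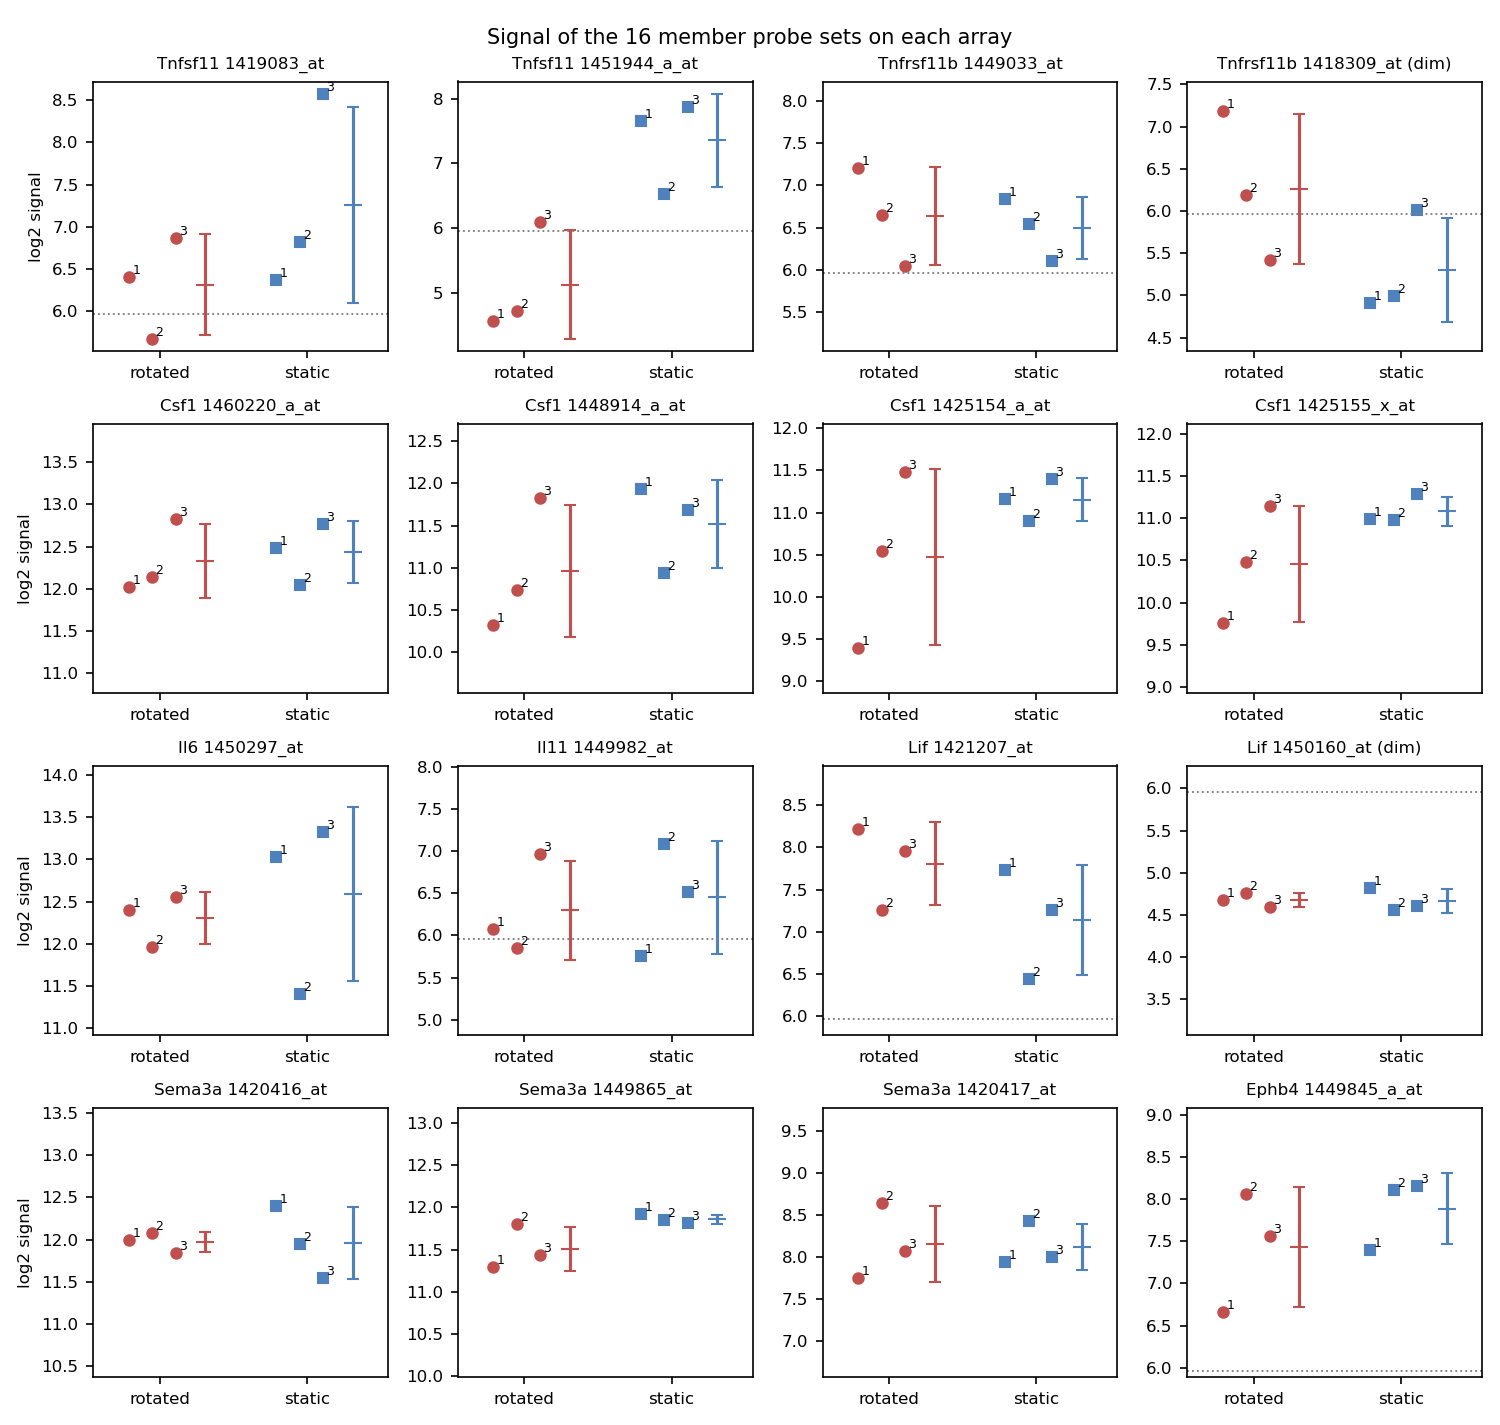
Normalised log2 signal of each of the 16 member probe sets on each array, with rotated samples as circles and static samples as squares, the replicate number beside each point, and the group mean ± SD (n = 3) at the right of each group; the dotted line is the filter level of 5.96 where it falls in range. The rotated and static points stand apart only for Tnfsf11 1451944_a_at and Sema3a 1449865_at.

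Tnfsf11, the gene of RANKL, had the lowest differences of the members, rotated minus static. Probe set 1451944_a_at had deposited signals of 6.4, 8.4 and 39.9 in rotated 1, rotated 2 and rotated 3, against 226.8, 63.4 and 222.5 in static 1, static 2 and static 3. All rotated values thus lay under all static values, with rotated 1 and rotated 2 near the bottom of the scale. On the normalised log2 scale it averaged 5.13 ± 0.84 in rotated samples and 7.36 ± 0.72 in static samples (SD, n = 3 each), a difference of -2.22 ± 0.55 (SE, unadjusted p 0.00272 and adjusted p 0.564 in limma). It passed the filter through its static values: rotated 1, rotated 2 and the rotated mean lie below the filter level of 5.96 log2 units, so neither the size of the difference nor its p is support for a change. With values under that level set to it, the difference was -1.35. All same-numbered pairs went the same way, by -3.09, -1.81 and -1.78.

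The brighter Tnfsf11 probe set, 1419083_at, had deposited signals of 73.4, 33.0 and 85.6 in rotated 1 to rotated 3, against 106.2, 83.1 and 381.9 in static 1 to static 3. Here the groups overlapped, and static 3 stood far above the others. It averaged 6.31 ± 0.60 in rotated samples and 7.26 ± 1.16 in static samples, a difference of -0.94 ± 0.58 (adjusted p 0.651 in limma). Without static 3 the difference was -0.29 for this probe set, which was -0.62 without rotated 2, and -1.96 for 1451944_a_at. The pairs differed by 0.03, -1.15 and -1.71, so the first pair showed no lower value where 1451944_a_at had its widest gap. The 2 probe sets were designed from different target sequences of the gene, and no test was made between them.

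Tnfrsf11b, the gene of the decoy receptor osteoprotegerin, was close to the filter level in both groups. Probe set 1449033_at had deposited signals of 129.4, 80.7 and 38.1 in rotated samples, against 145.4, 64.0 and 45.7 in static samples, and the groups overlapped throughout. It averaged 6.63 ± 0.58 in rotated samples and 6.49 ± 0.37 in static samples, a difference of 0.14 ± 0.42 (adjusted p 0.932 in limma). The other probe set, 1418309_at, was dim and failed the filter, with 126.8, 54.0 and 18.3 in rotated samples and 30.8, 11.4 and 42.4 in static samples. With no filter its difference was 0.95 ± 0.55 (adjusted p 0.739 in limma), and rotated 3 lay within the static range.

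The balance of ligand and decoy was read as the log2 signal of Tnfsf11 minus that of Tnfrsf11b on each array, relative to the static mean, since signals of different probes give no level against each other. With the brightest probe set of each gene it was -1.57, -1.73 and 0.05 in rotated 1 to rotated 3, against -1.23, -0.48 and 1.71 in static 1 to static 3. The ranges overlapped, with the rotated mean lower by 1.08 log2 units (difference -1.08, two-sided exact permutation test over 20 splits, p = 0.5). An exact permutation test of 3 against 3 cannot go below p = 0.1. The difference was -0.23 without static 3. With the other probe sets, chosen after seeing the data, it was -1.90, -2.36 and -3.18, and the pairings that use the dim Tnfrsf11b probe set showed no overlap (exact permutation p = 0.1, the smallest possible, and 0.2 adjusted over the 4 pairings). All of these pairings hold values under the filter level, so their sizes are not exact. With such values set to that level the 4 differences were -0.99, -1.31, -1.49 and -1.81 (exact permutation p 0.5, 0.3, 0.2 and 0.1), and since the pairings share their arrays and probe sets, their common sign is no support for a direction.

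**Figure D2:**
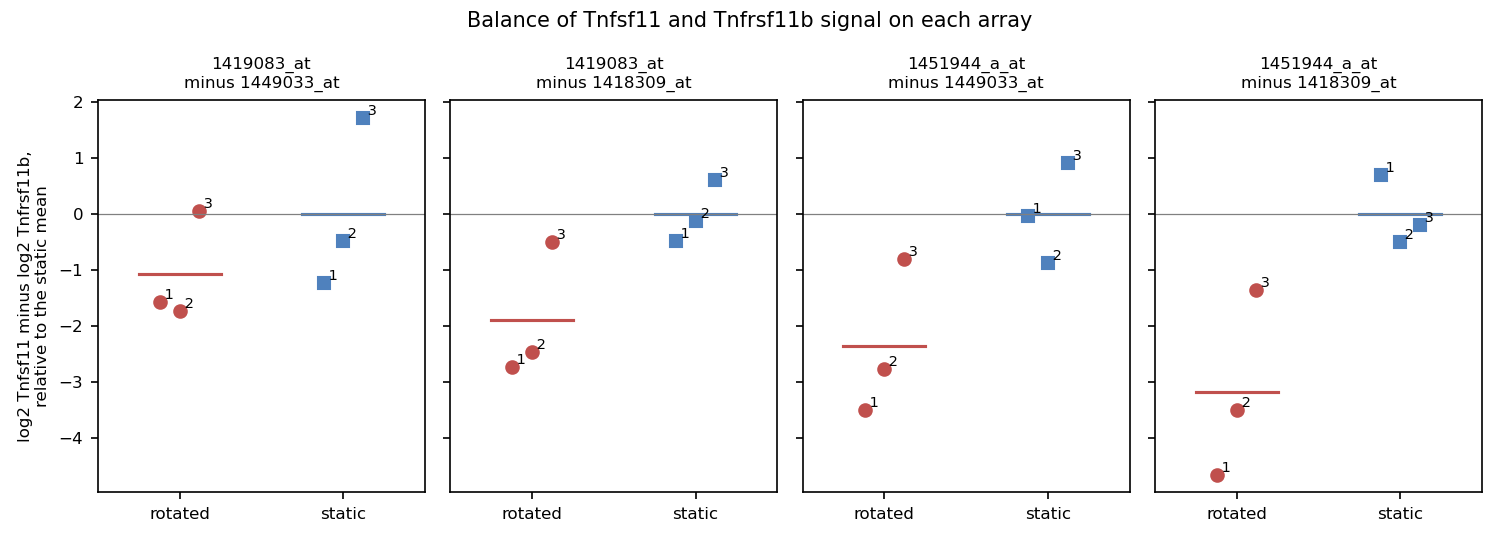
Log2 signal of Tnfsf11 minus that of Tnfrsf11b on each array, relative to the static mean, for the 4 pairings of their probe sets, with rotated samples as circles, static samples as squares and bars at the group means. Rotated 3 is the highest rotated sample in each panel, and the mean difference runs from -1.08 in the first panel to -3.18 in the last.

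Csf1, the gene of M-CSF, was bright in both groups. Its brightest probe set, 1460220_a_at, had deposited signals of 4358.3, 4569.0 and 7056.2 in rotated samples, against 5235.0, 4343.6 and 6671.6 in static samples. The groups covered the same range, with a difference of -0.10 ± 0.26 (adjusted p 0.918 in limma). The other 3 probe sets stood lower in the rotated samples, 1448914_a_at by -0.56 ± 0.39, 1425154_a_at by -0.68 ± 0.44 and 1425155_x_at by -0.62 ± 0.32 (adjusted p 0.678, 0.658 and 0.619 in limma). In each of these 3, rotated 1 was the lowest array of all, and on the normalised scale rotated 3 lay within the static range for 1448914_a_at and 1425155_x_at and just above it for 1425154_a_at. For 1425154_a_at the deposited signals were 598.9, 1477.4 and 2872.9 in rotated samples and 2175.6, 1898.6 and 2685.6 in static samples. Rotated 1 also had the highest actin ratio (3.21), and without it the 3 differences were -0.24, -0.15 and -0.27; fitted with that ratio as covariate they were -0.07, 0.15 and -0.08. Without rotated 3 they were -0.99, -1.18 and -0.96. The 4 probe sets come from 2 target sequences, 2 from each, and an x in a probe set name marks possible cross-hybridisation. Only 1425155_x_at had an unadjusted p under 0.05 with the replicate block (p 0.0281, adjusted p 0.301 in limma), with pairs at -1.22, -0.50 and -0.15.

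The gp130 cytokines differed in the sign of their differences, none of which passed the test. Il6, an inflammatory cytokine, was bright, with deposited signals of 5880.8, 4002.8 and 5864.6 in rotated samples, against 7498.3, 2728.5 and 9682.6 in static samples. The static samples spread wider and enclosed all rotated values, with a normalised mean of 12.31 ± 0.31 in rotated samples and 12.59 ± 1.03 in static samples and a difference of -0.28 ± 0.43 (adjusted p 0.853 in limma). The pairs went both ways, at -0.63, 0.56 and -0.77. Without static 2, the lowest static sample, the difference was -0.87, and without static 3 it was 0.09.

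Lif, a cytokine that signals through gp130 and the LIF receptor, had the highest difference of the tested member probe sets. Its tested probe set 1421207_at had deposited signals of 250.5, 131.0 and 230.2 in rotated samples, against 235.4, 57.8 and 129.3 in static samples. The groups overlapped, with static 1 above rotated 2 and rotated 3 in deposited value and, on the normalised scale, static 3 level with rotated 2. The normalised mean was 7.81 ± 0.50 in rotated samples and 7.14 ± 0.65 in static samples, a difference of 0.67 ± 0.41 (adjusted p 0.650 in limma). Each rotated sample was above its same-numbered static sample, by 0.49, 0.82 and 0.70, and with the replicate block the unadjusted p was 0.0357 (adjusted p 0.315 in limma). The difference was 0.32 without static 2 and 0.34 with the actin covariate. The second Lif probe set, 1450160_at, lay at the bottom of the scale on all arrays, with deposited signals from 4.3 to 9.0 in rotated samples and 4.2 to 28.4 in static samples, and was not tested. Il11, a cytokine of the same family, was near the filter level at 56.3, 39.5 and 94.0 in rotated samples, against 62.1, 105.8 and 66.7 in static samples. Its difference of -0.15 ± 0.48 (adjusted p 0.936 in limma) lay within its error, and its pairs stood at 0.32, -1.23 and 0.45.

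Sema3a, whose secreted product repels axons and also restrains osteoclast formation, was measured by 3 probe sets from 1 target sequence. The brightest, 1420416_at, had 4292.4, 4366.6 and 3680.5 in rotated samples, against 4947.8, 4078.8 and 2952.5 in static samples, a difference of 0.01 ± 0.23. Probe set 1449865_at had 2518.8, 3590.9 and 2785.7 in rotated samples, against 3582.2, 3793.7 and 3537.6 in static samples, and differed by -0.35 ± 0.19 (adjusted p 0.627 in limma). Its normalised values did not overlap, with 11.80 in rotated 2 just below 11.81 in static 3, while its deposited values did. The dimmest one, 1420417_at, stood at 0.03 ± 0.31, so the 3 probe sets of Sema3a showed no common direction. Ephb4, a receptor tyrosine kinase of osteoblasts for ephrin-B2, had 89.0, 245.3 and 164.8 in rotated samples, against 197.7, 253.0 and 276.7 in static samples. Rotated 1 was the lowest, rotated 2 lay within the static range, and rotated 3 did so on the normalised scale only. The difference was -0.46 ± 0.41 (adjusted p 0.731 in limma). Without rotated 1 it was -0.07, without rotated 2 -0.77 and without static 1 -0.70.

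**Figure D3:**
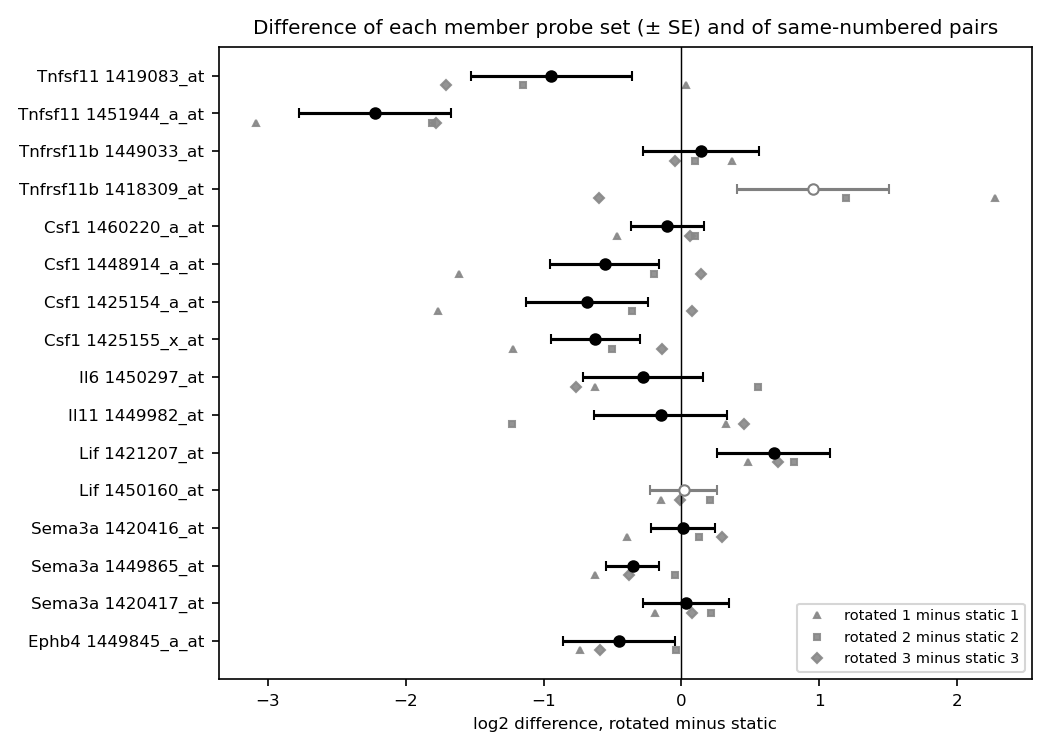
Log2 difference of rotated minus static samples for each member probe set, with limma's SE as bars (n = 3 per group), open symbols for the 2 dim probe sets that failed the filter, and small grey symbols for the 3 same-numbered pairs. Tnfsf11 1451944_a_at at -2.22 lies farthest from 0, and all pairs of Lif 1421207_at lie above 0.

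The receptors and ligands that meet these factors were described from a list of 16 genes, of which 15 were tested. Of these, 7 stood lower and 8 higher in the rotated samples, with a median of 0.01 (all tested genes 0.03), and at an unadjusted p under 0.05 in limma 2 stood lower and 1 higher, against 3.74% and 4.49% of all tested genes. None passed adjustment. Il6st, which encodes gp130 itself, the chain shared by IL-6, IL-11 and LIF, had deposited signals of 2445.6, 4043.0 and 4363.2 in rotated samples, against 5449.6, 6084.4 and 6353.8 in static samples. All rotated samples lay under all static samples, with a difference of -0.81 ± 0.24 (adjusted p 0.592 in limma) and pairs at -1.30, -0.54 and -0.58. Its 3 other tested probe sets stood at -1.33 ± 0.52, -0.90 ± 0.33 and -0.12 ± 0.28, all 3 with overlapping groups. Without rotated 1 the difference of the brightest one was -0.55, and fitted with the actin covariate it was -0.41.

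Lifr, the LIF receptor chain that pairs with gp130, had 1614.4, 1912.2 and 1861.7 in rotated samples, against 2373.0, 2432.9 and 2707.3 in static samples, again without overlap. Its difference was -0.50 ± 0.18 (adjusted p 0.592 in limma), with a second probe set at -0.42 ± 0.22. A dimmer one had the opposite sign, at 1.39 ± 0.59 (adjusted p 0.603 in limma). The static mean of the dimmer one lay below the filter level, and its difference was 0.49 with values under that level set to it. Both chains of the LIF receptor thus had their lowest values in rotated samples on their brightest probe sets, while the ligand gene Lif stood at 0.67 ± 0.41. Efnb2, the ephrin-B2 ligand of EphB4, differed by 0.56 ± 0.24 without overlap, but its 3 other tested probe sets had the opposite sign, and without rotated 1 it was 0.37. Plxna4, a plexin chain of semaphorin receptors, stood at -0.75 ± 0.50, and at -0.25 without static 1. Tnfrsf11a, the gene of RANK, was near the filter level at -0.15 ± 0.73 and is named here because it is the receptor of the Tnfsf11 product.

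Downstream of gp130, 15 of 16 listed genes were tested, 7 lower and 8 higher, with a median of 0.00 and 1 gene at an unadjusted p under 0.05, lower. With the replicate block 4 genes were, all lower (Socs2, Cebpd, Stat5b and Stat3), against 6.75% of all tested genes lower and 8.23% higher, and 0 passed adjustment. The 1 gene without the block was Socs2, a feedback inhibitor of cytokine signalling, at -0.75 ± 0.19 (adjusted p 0.590 in limma) and without overlap, while 2 of the 4 others tested for this gene had the opposite sign. Stat3, the main transcription factor of the pathway, stood at -0.63 ± 0.36 with 2 of 3 other probe sets opposite. Stat5b stood at -0.51 ± 0.28 and Cebpd, an acute phase factor gene, at -0.51 ± 0.28, each with its 1 other probe set opposite. Without rotated 1, Stat3 was at -0.18 and Cebpd at -0.23, and with the actin covariate Stat3 was at 0.04.

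Among family members of the factors, 12 of 19 listed genes were tested, 7 lower and 5 higher, with a median of -0.26. The class 3 semaphorin gene Sema3g stood at -0.98 ± 0.35 and was the 1 gene with an unadjusted p under 0.05 (adjusted p 0.592 in limma), where 3.74% of all tested genes were lower and 4.49% higher at that level and 46.8% stood lower. With the replicate block Il1r1 joined it, against 6.75% of all tested genes lower. Ephb3, an EphB receptor like Ephb4, stood at -0.40 ± 0.21, Il1r1, the interleukin-1 receptor, at -0.83 ± 0.50 and Sema3f at -0.61 ± 0.43. Without static 1, Il1r1 was at -0.29 and Sema3f at -0.058, and without static 2 they were at -1.31 and -0.97.

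Other factors of stromal cells that act on osteoclasts or their precursors numbered 30 in the list, of which 21 were tested, 11 lower and 10 higher, with a median of -0.09. At an unadjusted p under 0.05 in limma 5 stood lower, against 3.74% of all tested genes, and 0 higher, against 4.49%, with 0 of 21 at an adjusted p under 0.05. The adhesion molecule gene Vcam1 had the smallest p, at -1.11 ± 0.23 (adjusted p 0.487 in limma). Gas6, a ligand of TAM receptors, followed at -1.08 ± 0.26. The chemokine genes Cxcl12 and Ccl7 came next, at -0.42 ± 0.16 and -0.81 ± 0.33, with Ccl7 at -0.53 without rotated 1. Cxcl12 was at -0.224 as deposited and -0.088 with median centring (unadjusted p 0.237 and 0.754 in limma). Its place among the 5 thus depended on the scaling. With median centring Vcam1, Gas6 and Ccl7 were at -0.894, -0.998 and -0.624 (unadjusted p 0.018, 0.022 and 0.15 in limma). The list's mean level relative to static was -0.15 and -0.29 in rotated 1 and rotated 2 and 0.22 in rotated 3, inside the static range of -0.30 to 0.34.

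Genes known to control Tnfsf11 or Tnfrsf11b transcription were tested for 16 of 24 listed, 14 lower and 2 higher, with a median of -0.21 against 0.03 for all tested genes. Of all tested genes 46.8% stood lower. None of the 14 had an unadjusted p under 0.05 in limma, while with the replicate block Fos and Jun did, against 6.75% of all tested genes lower, and 0 passed adjustment. The 1 other tested probe set of Jun had the opposite sign. Of the 2 higher genes 1, Ptgs2, had an unadjusted p under 0.05 both without and with the block. At that level 4.49% and 8.23% of all tested genes stood higher. Ptgs2 encodes the inducible cyclooxygenase that makes precursors of prostaglandin E, an inducer of RANKL. Ptgs2 stood at 1.24 ± 0.22 (adjusted p 0.331 in limma), the opposite sign to both Tnfsf11 probe sets. Fos, an AP-1 subunit, stood at -0.74 ± 0.33, the estrogen receptor gene Esr1 at -0.35 ± 0.25 and Tcf7l2, a Wnt effector, at -0.39 ± 0.28. Fos was at -0.37 without static 3 and Tcf7l2 at -0.24 without static 1. The list's mean level relative to static was -0.32 in rotated 1 (actin ratio 3.21), 0.02 in rotated 2 and -0.12 in rotated 3, against -0.12 to 0.10 in the static samples.

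**Figure D4:**
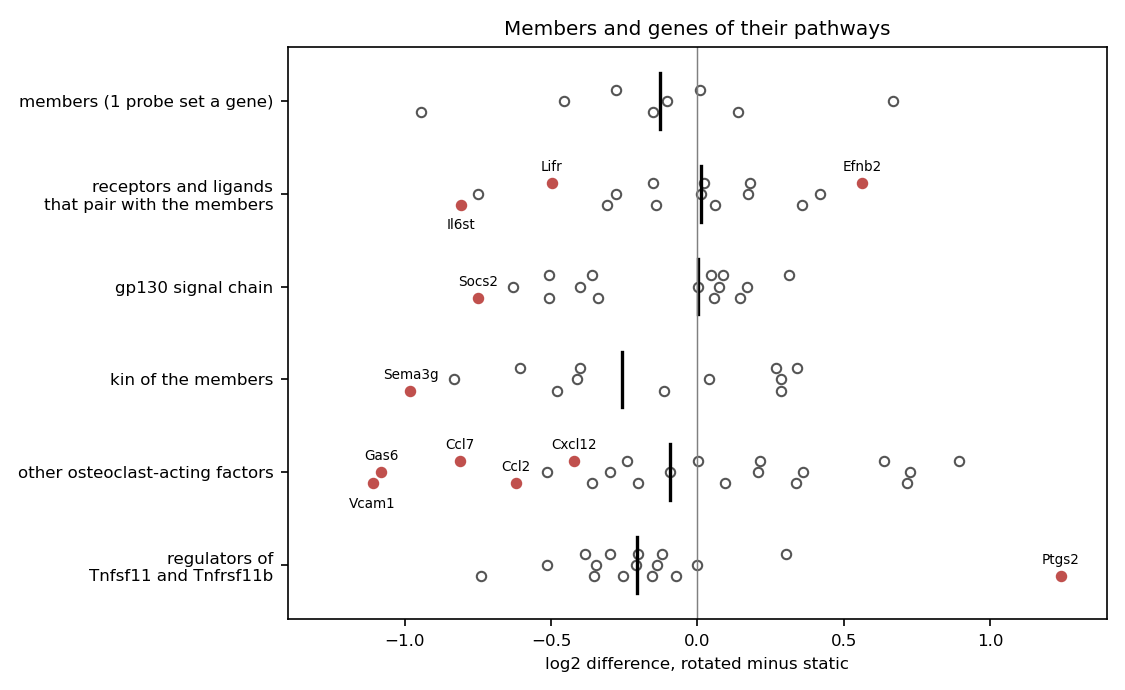
Log2 difference of rotated minus static samples for each tested gene, 1 point a gene, for the 8 members and 5 lists of their pathways, with the median of each as a vertical bar; filled, named points had an unadjusted p under 0.05 in limma and open points did not. No member is filled on its brightest probe set, and Ptgs2 is the filled point farthest to the right at 1.24.

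Genes with the most similar profiles were ranked by the root mean square difference between log2 profiles over the 6 arrays, each centred on its own mean. For Tnfsf11 1419083_at the nearest of 12554 genes were Gpx3 at 0.38, Eml5 at 0.47 and 3830408C21Rik at 0.47 log2 units. For Tnfrsf11b 1449033_at they were Zmynd11 at 0.05, Tbx18 at 0.07 and Znhit3 at 0.08. For Csf1 1460220_a_at they were Btbd2 at 0.06, Mboat7 at 0.07 and Ltbr at 0.08. This measure grows with a probe set's own spread, so distances are not compared between members. The nearest to Tnfsf11, the secreted glutathione peroxidase gene Gpx3, stood at -1.33 ± 0.48. It was picked for its likeness to that profile on the same arrays, so its sign is no support for that of Tnfsf11.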

How the data were processed

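Total RNA of 6 samples of 2T3 cells, 3 rotated and 3 static by their titles, was hybridised to 1-colour Affymetrix arrays. The deposited values are linear intensities, 1 for each of 45101 probe sets on an array. Their mean, trimmed by 2% at both ends, was 500.0 for all arrays, so the authors had scaled them to a common target. The summary algorithm is not given in the sources used here, and detection calls were not used.

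An offset of 16.6, the 20th percentile of the table, was added before taking log2, which understates differences of dim probe sets. Quantile normalization followed because array medians differed by 85.9%, above a tolerance of 10%. The 64 controls and probe sets with a mean below the 40th percentile (5.96 log2 units, about 45.7 in signal) were left out. Symbols came from the platform's probe table, updated through a RefSeq table of GRCm38.p6, with 1 symbol for 34945 probe sets, several for 932 and none for 9160. A gene was represented by its brightest probe set.

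The test was limma 3.58.1 under R 4.3.3, two-sided, with eBayes moderation along an intensity trend and Benjamini-Hochberg adjustment over all tested probe sets at a threshold of 0.05, and it was tested on simulated data. Differences are log2 rotated minus static with limma's moderated SE. Every member probe set is named, and in each list up to 4 tested genes with the smallest p. The members and lists were chosen with earlier results of these data known. Deviations from the group means correlated at 0.196, 0.313 and 0.334 for same-numbered samples and between -0.186 and -0.0940 for others. Deviations cancel within a group, so positive values for same-numbered samples push the others to negative ones, and that contrast is partly built in. The numbers were taken as pairs only for the replicate block and the pair differences, though no label explains them. The main test was unpaired. Promoter sequences were those of RefSeq, in GRCm38.p6, found for 8 of the 9 members.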

Additional observations from a re-analysis of the deposited data

How the results depend on the processing

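Member calls were 0 under each of the 18 alternatives run, which changed the scaling, offset, filter, moderation, weights, block, actin covariate and samples, and precision is limited by 3 arrays a group. Over all probe sets the adjusted calls were 22 with array weights and 2 with the replicate block, and 0 otherwise. With median centring 1352 had an unadjusted p under 0.05 (68.0% higher in rotated samples), against 2228 in the main test (52.6%) and 2142 as deposited (45.0%). The majority direction thus turned with the scaling. The count at that level was 5148 with array weights, 3957 with the replicate block, 702 with the actin covariate and 1091 to 3362 leaving out 1 sample. For member probe sets that count was 0 with the stricter filter, 3 with array weights, 3 with the replicate block and 1 to 4 leaving out 1 sample (3 without static 1, 4 without rotated 3, 2 without static 2 or rotated 2). Both tested Tnfsf11 probe sets, Lif 1421207_at and the balance of Tnfsf11 and Tnfrsf11b kept their sign under every alternative that gave a value (balance -3.18 to -0.23, and -1.70 to -0.23 leaving out 1 sample). The alternatives reuse the same arrays, and Tnfsf11 1451944_a_at passed the filter only through its static values. These kept signs are therefore no support for a direction. The stricter filter left out all probe sets of Tnfsf11, Tnfrsf11b and Il11. Among the member probe sets 24 of 256 values turned sign. Tnfrsf11b 1449033_at was -0.022 as deposited and -0.32 with the actin covariate (-0.15 to 0.43 leaving out 1 sample). Csf1 1460220_a_at was 0.10 with median centring, 0.13 with the actin covariate, 0.079 without static 1 and rotated 1 together, and -0.35 to 0.064 leaving out 1 sample; Csf1 1425154_a_at was 0.15 with the actin covariate. Il11 was 0.090 with that covariate (-0.50 to 0.16 leaving out 1 sample), Ephb4 0.13, and Il6 -0.87 to 0.091 leaving out 1 sample. Sema3a 1420416_at was -0.10 as a mean over probe sets and -0.031 with the actin covariate (-0.20 to 0.23 leaving out 1 sample), and 1420417_at -0.077 as deposited (-0.21 to 0.24 leaving out 1 sample). Of 24 list genes named, examined by alternatives added after seeing the data, as were the other pairings of Tnfsf11 and Tnfrsf11b probe sets, Stat3 alone turned sign, at 0.043 with the actin covariate. With values under the filter level set to it, also added after seeing the data, the balance was -1.81 to -0.99 over the 4 pairings. The replicate block changed no adjusted call of a member or named list gene. At an unadjusted p under 0.05 it gave 2 lower and 1 higher among receptors and ligands. Among other factors of stromal cells it gave 5 lower and 1 higher. It gave 8 lower among osteoblast lineage genes, 1 higher among macrophage markers and 0 among osteoclast markers, where the test without the block gave 7, 0 and 0. Of all tested genes 6.75% were lower and 8.23% higher at that level. Counts for the other lists stand beside their results. The causes were not tested.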
